A study of Homo sapiens with 30 samples.

Results

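The question addressed here was whether inhibition of SUMO attachment changes the transcript response of HCT116 cells to heat shock. HCT116 is an established colorectal carcinoma line of epithelial origin. ML-792 (ML00754792 in the labels) inhibits the SUMO-activating enzyme, and DMSO was its vehicle. The experiment comprised 12 of the 30 mRNA sequencing libraries of the series, 4 groups of n = 3 that the labels describe as biological triplicates. ML-792 heat shock cells were kept in 500 nM ML-792 throughout, for 2 h before the shock, 0.5 h at 43 °C and 1 h of recovery at 37 °C. ML-792 cells without heat shock had 3.5 h in 500 nM ML-792. DMSO heat shock cells had the same heat and recovery in 0.01% DMSO, and DMSO cells without heat shock had 3.5 h in 0.01% DMSO. All 4 groups share the parental line, with no genetic change named in their labels. The members were all HCT116 libraries titled with or without heat shock, and the measure was a difference of differences per gene, the heat shock effect under ML-792 minus the heat shock effect under DMSO, called the interaction here. A positive interaction means that the heat shock effect lay higher under ML-792.

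As background, heat shock causes proteins to misfold, which frees the transcription factor HSF1 from chaperones. HSF1 binds heat shock elements in promoters and induces chaperones of the HSP70, HSP40, HSP90 and small heat shock protein families. The same stress activates MAP kinases and immediate early genes, while most of the transcription of growth genes slows down. SUMO2 and SUMO3 are known to become attached to many nuclear proteins within minutes of heat shock, and the enzyme that starts this attachment, a heterodimer of SAE1 and UBA2, is the target of ML-792.

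The promoters of 3 genes that the results turn on are shown because they belong to genes with different responses. HSPA6 is the heat shock protein with a call for a larger rise under ML-792, RGS2 had the most negative interaction among the genes that held in every fit described further on, and SPRY4 had heat shock effects of opposite sign on the deposited scale. The windows are RefSeq sequences of GRCh38.p14, from 250 bases before to 50 after the start of the gene. HSPA6 is at chr1:161524290-161524589 (plus strand), RGS2 at chr1:192808789-192809088 (plus strand) and SPRY4 at chr5:142324198-142324497 (minus strand). Capitals mark a heat shock element (GAA, TTC and GAA with NN between each), an AP-1 site (TGANTCA) or a CRE core (TGACG) on either strand.
HSPA6: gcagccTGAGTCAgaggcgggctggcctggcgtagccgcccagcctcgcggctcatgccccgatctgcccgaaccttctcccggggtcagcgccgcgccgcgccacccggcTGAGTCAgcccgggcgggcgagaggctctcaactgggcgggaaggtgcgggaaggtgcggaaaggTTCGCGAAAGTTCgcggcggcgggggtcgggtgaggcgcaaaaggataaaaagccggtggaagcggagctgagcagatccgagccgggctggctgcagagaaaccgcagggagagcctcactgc
RGS2: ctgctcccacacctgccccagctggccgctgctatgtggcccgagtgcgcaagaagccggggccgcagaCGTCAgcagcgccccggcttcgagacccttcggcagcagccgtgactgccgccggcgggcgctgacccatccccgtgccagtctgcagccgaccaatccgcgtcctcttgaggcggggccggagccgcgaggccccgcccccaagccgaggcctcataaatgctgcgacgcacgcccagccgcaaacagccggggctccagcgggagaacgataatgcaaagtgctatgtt
SPRY4: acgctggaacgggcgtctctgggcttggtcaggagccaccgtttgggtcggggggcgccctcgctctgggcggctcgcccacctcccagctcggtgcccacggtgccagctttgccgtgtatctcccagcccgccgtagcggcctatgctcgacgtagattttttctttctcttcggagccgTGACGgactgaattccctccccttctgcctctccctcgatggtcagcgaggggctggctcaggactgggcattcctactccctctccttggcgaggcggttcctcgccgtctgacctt
The HSPA6 window held 1 heat shock element and 2 AP-1 sites, and the RGS2 and SPRY4 windows held 1 CRE core each. The DNAJB1, BAG3, HSPH1 and HSPA1B windows held 0 heat shock elements by this pattern, although these genes also rose with heat shock. Among other genes with a negative interaction, the DUSP6, ID2, KLF6 and ELF3 windows held 0 CRE cores. The PMAIP1, HES1 and PLK2 windows and 1 of the KLF5 windows held 1 each. Among 35116 promoter windows of the same length, 0.49% held the heat shock element, 7.71% the AP-1 site and 24.6% the CRE core, which can lie within a full CRE (TGACGTCA, in 1.85%). These matches describe the letters of the windows and no binding.

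Values were FPKM (fragments per kilobase of transcript, scaled to the size of the library), as deposited. From 11535 to 12047 genes were at 1 FPKM or above, depending on the library, and the relative depth, inferred from low values, spanned 0.51 to 1. This depth was 0.51, 0.592 and 0.681 in ML-792 heat shock and 0.659, 0.675 and 0.852 in ML-792 without it. In DMSO it was 0.759, 0.724 and 0.692 with heat shock and 1, 1 and 0.694 without. The median SD between replicates was 0.118 in ML-792 heat shock and 0.0464 in ML-792 without it, against 0.0984 in DMSO heat shock and 0.0436 in DMSO without it, on the log2(FPKM + 1) scale. The epithelial markers EPCAM, KRT8, KRT18, CDH1 and CLDN4 were at 10.95 FPKM or more in all 12 libraries. Of 9 markers of other cell types, 8 stayed under 1 FPKM in every library. The other, COL1A1, was at 15.1 to 18.3 FPKM in ML-792 heat shock and 13.2 to 15.4 FPKM in DMSO heat shock, against 1.53 to 1.67 FPKM in ML-792 and 1.53 to 1.64 FPKM in DMSO without heat shock, while the fibroblast markers COL1A2 and DCN stayed at or below 0.636 and 0.174 FPKM. Library numbers in the labels form a block for the heat shock samples and another for those without, so heat shock and anything else that differed between these blocks cannot be told apart. ML-792 and DMSO were both present in each block, but the DMSO numbers all came before the ML-792 numbers within it. Anything that followed this order cannot be told apart from ML-792 or, if it differed between the blocks, from the interaction. In these bulk samples a lower level per cell and fewer cells with the transcript cannot be told apart.

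Of 12191 genes tested (1 FPKM or more in at least 3 libraries), 781 had an interaction at a Benjamini-Hochberg adjusted p under 0.05 in limma, which is 6.41% of the genes. The interaction was positive for 302 (2.48%) and negative for 479 (3.93%), and 18 of them differed at least 2-fold (4 positive and 14 negative). Heat shock itself changed 7517 genes (61.7%) under ML-792 and 6033 (49.5%) under DMSO. ML-792 changed 4083 genes (33.5%) in heat-shocked cells and 147 (1.21%) without heat shock. All 4 groups shared 1 estimate of the spread per gene, although replicates differed more with heat shock. With each group weighted by its own spread, these counts became 1257 and 962, so their contrast depends on that setting. The scaling set the balance of the heat shock calls, since 63.8% of them were rises under ML-792 and 58.4% under DMSO, but 21.0% and 18.7% after scaling to equal totals. That scaling moved the median heat shock effect of all genes from 0.10 to -0.18 under ML-792 and from 0.05 to -0.19 under DMSO, while the median interaction moved to 0.0042. Heat shock effects below are on the deposited scale, and a direction that changes with the scaling is given beside its gene. Over all genes tested the median interaction was 0.05, and 90% of genes lay between -0.42 and 0.36 on the log2 scale.

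The interaction moved with the GC content of transcripts. Its Spearman correlation with GC across 11513 genes, which are not independent replicates, was 0.71, whereas that of the heat shock effect was 0.44 under ML-792 and 0.02 under DMSO. The median interaction was -0.21 in the quintile of genes with the lowest GC content and 0.24 in the quintile with the highest. All 3 ML-792 heat shock libraries were high in GC-rich genes and low in GC-poor genes relative to the 12-library mean, with library 2 farthest (a span of 0.60, against 0.23 in library 1 and 0.20 in library 3). DMSO heat shock libraries had spans of -0.13, -0.19 and 0.11, and those without heat shock between -0.17 and -0.08. Called genes with a positive interaction had a median GC content of 58.4%, those with a negative one 40.1%, and all genes tested 48.5%. The part of GC-dependent coverage in the interaction was not tested beyond a fit in which each library's trend on GC content and transcript length was removed, added after seeing the data. That fit called 292 of 11513 genes (2.54%), 75 positive (0.651%) and 217 negative (1.88%), and 198 genes were called by both fits with the same sign.

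**Figure D1:**
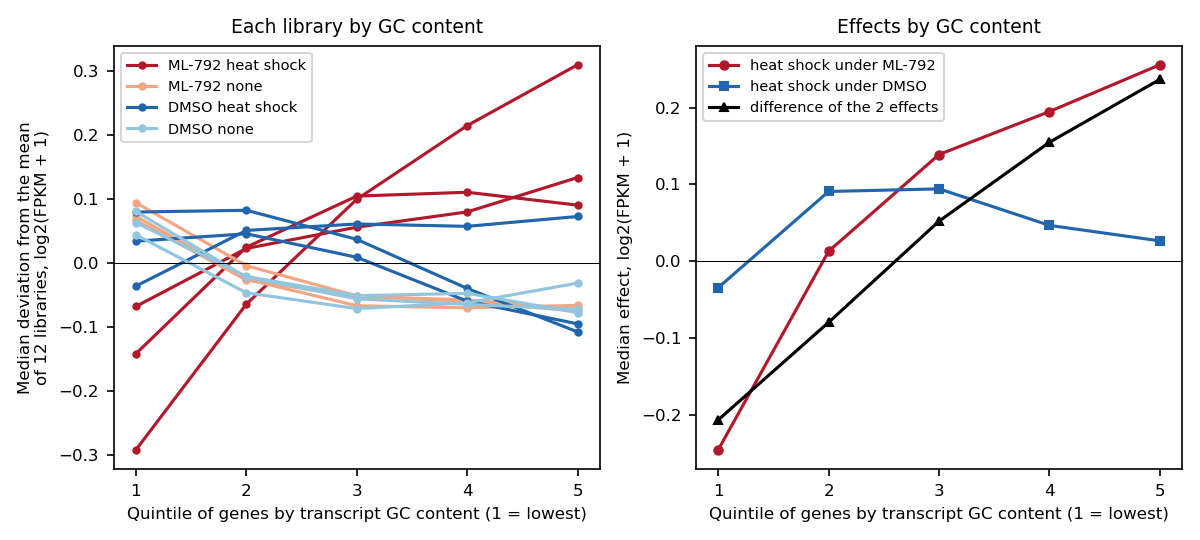
Left, median deviation of each of the 12 libraries from their common mean (y axis, log2(FPKM + 1)) in quintiles of genes ordered by transcript GC content (x axis). Right, median heat shock effect under ML-792, under DMSO and their difference in the same quintiles. The ML-792 heat shock libraries are lowest in the first quintile and higher in each of the others, and the median interaction runs from -0.21 in the lowest quintile to 0.24 in the highest.

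The number of calls also depended on which libraries entered the fit. Leaving out 1 library at a time gave between 77 and 2526 calls. Omitting any of the 6 libraries without heat shock, or DMSO heat shock library 2, left 77 to 107 calls, while 1870 were made without DMSO heat shock library 3 and 2526 without ML-792 heat shock library 3. The results below separate genes by stability. Without any 1 library, 9 positive (0.0738%) and 60 negative (0.492%) interactions stayed called in all 12 fits. A group of 52 genes was called in the fit of all 12 libraries, in each of the 12 fits without 1 library, and in the same 13 fits after the GC and length trend was removed. Of these, 47 had a negative interaction and 5 a positive one, and they are said below to hold in every fit. The fits meant do not include the other scalings. Their median GC content was 45.9% for the 47 with a negative interaction. The named calls outside this group that were lost in the leave-one-out fits were lost mostly without 1 of the same 7 libraries.

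Among the 47 genes with a negative interaction that held in every fit, heat shock acted in 5 ways. It raised 17 of them under both treatments, but less under ML-792. It lowered 7 under both, and more under ML-792. It raised 5 under DMSO with no call under ML-792, and raised 8 under DMSO but lowered them under ML-792. The other 10 had no call under DMSO and fell under ML-792. In heat-shocked cells 42 of the 47 were lower with ML-792 than with DMSO, and without heat shock 21 were higher with ML-792. Over all genes tested these shares were 15.1% lower with heat shock and 1.02% higher without it. Since the interaction is the difference of these effects, the choice of the 47 genes fixes much of these counts. With equal totals the counts in the same order were 16, 11, 1, 7 and 12, and 42 were again lower with ML-792 after heat shock.

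Genes that act on growth factor, G protein or MAP kinase signalling had some of the most negative interactions. RGS2, which speeds the shut-off of G protein signals, was at 36.7, 35.1 and 36.9 FPKM in ML-792 heat shock and 18.4, 22.0 and 21.2 FPKM in ML-792 without heat shock. In DMSO it was at 59.6, 67.5 and 69.9 FPKM with heat shock and 12.6, 13.1 and 12.7 FPKM without. The 4 groups did not overlap, and heat shock raised RGS2 1.77-fold under ML-792 and 5.13-fold under DMSO. Its interaction was -1.47 ± 0.10 on the log2(FPKM + 1) scale (SE, adjusted p = 2.15e-05 in limma), and -1.29 ± 0.07 with the GC and length trend removed.

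DUSP5 and DUSP6 are dual-specificity phosphatases that dephosphorylate ERK in the nucleus and the cytoplasm. DUSP5 was at 125.1, 135.1 and 133.7 FPKM in ML-792 heat shock and 65.5, 64.7 and 66.4 FPKM in ML-792 without heat shock. The DMSO libraries had 219, 256 and 265 FPKM with heat shock and 51.8, 54.3 and 54.0 FPKM without. DUSP5 thus rose 2.00-fold with heat shock under ML-792 and 4.62-fold under DMSO, an interaction of -1.19 ± 0.10 (adjusted p = 5.3e-05). DUSP6 instead fell with heat shock under both treatments. It was at 16.0, 15.1 and 16.1 FPKM in ML-792 heat shock and 54.6, 51.8 and 51.9 FPKM in ML-792 without heat shock, against 23.3, 23.9 and 22.9 FPKM in DMSO heat shock and 41.7, 41.7 and 40.4 FPKM in DMSO without heat shock. Its interaction was -0.89 ± 0.07 (adjusted p = 3.03e-05), with ML-792 above DMSO before the heat shock and below it afterwards.

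SPRY4, a Sprouty inhibitor of receptor tyrosine kinase signalling, had heat shock effects of opposite sign, though the rise under DMSO depended on the scaling. The ML-792 libraries had 21.2, 19.4 and 19.8 FPKM with heat shock and 30.5, 29.3 and 31.5 FPKM without. The DMSO libraries had 30.9, 27.6 and 27.0 FPKM with heat shock and 22.9, 22.3 and 23.2 FPKM without. Heat shock changed SPRY4 by -0.57 ± 0.06 under ML-792 (adjusted p = 5.39e-06) and by 0.31 ± 0.06 under DMSO (adjusted p = 0.000991, but 0.04 and 0.704 with equal totals), an interaction of -0.88 ± 0.08 (adjusted p = 0.000135). TRIB1, a pseudokinase that acts as a scaffold for ubiquitin ligases and MAP kinase kinases, had opposite effects under each scaling tried (-0.89 under ML-792 and 0.34 under DMSO with equal totals). It was at 59.6, 61.2 and 67.1 FPKM in ML-792 heat shock and 93.5, 91.0 and 95.2 FPKM in ML-792 without heat shock, against 131, 149 and 148 FPKM in DMSO heat shock and 91.0, 94.0 and 94.4 FPKM in DMSO without heat shock. Without heat shock the ML-792 and DMSO ranges of TRIB1 overlapped, and after heat shock they did not. Its interaction was -1.18 ± 0.09 (adjusted p = 3.03e-05).

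Of 16 MAP kinase feedback genes, 0 had a positive and 4 a negative interaction in limma (2 and 8 at an unadjusted p under 0.05). Of all 12191 genes tested, 2035 were positive and 1781 negative at that unadjusted p, the background for such counts in other lists below. The negative share was 25%, beside 3.93% of all genes, and their median interaction was -0.16, beside 0.05 for all genes. DUSP5, DUSP6 and SPRY4 held in every fit, and DUSP16 had a smaller value of -0.31 ± 0.08 (adjusted p = 0.0439, and 0.0506 without the GC and length trend). Members with no call included DUSP1, which was at 18.2 ± 2.9 FPKM in ML-792 heat shock and 22.3 ± 1.7 FPKM in DMSO heat shock, with an interaction of -0.15 ± 0.14 (SE), and SPRY2, at 0.23 ± 0.11. These 2 and DUSP16 were chosen after their values were seen.

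**Figure D2:**
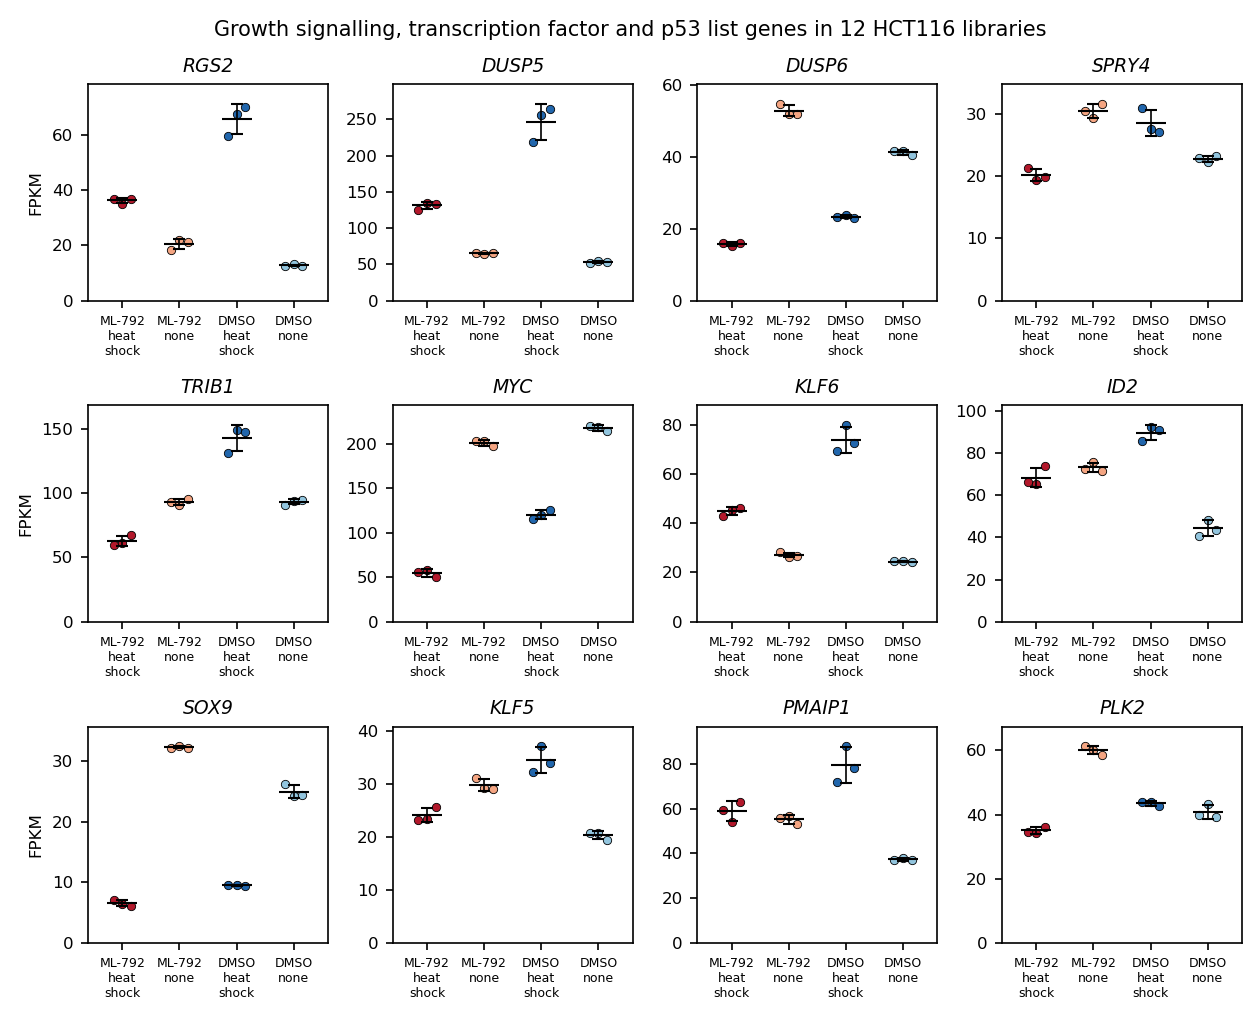
FPKM (y axis, linear, from 0) of 12 genes in each of the 12 libraries, by group: ML-792 with heat shock, ML-792 without, DMSO with heat shock and DMSO without. Points are libraries, and bars give the mean and SD of n = 3. RGS2, DUSP5 and KLF6 rise less with heat shock under ML-792, and MYC, SOX9 and DUSP6 reach their lowest levels in ML-792 heat shock.

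Among transcription factors of the immediate early list, MYC, KLF6 and ID2 had lower heat shock effects under ML-792. MYC, a driver of growth and ribosome production, fell with heat shock under both treatments. It was at 55.9, 58.5 and 50.4 FPKM in ML-792 heat shock and 203, 203 and 197 FPKM in ML-792 without heat shock. The DMSO values were 116, 120 and 125 FPKM with heat shock and 220, 219 and 214 FPKM without. The fitted heat shock change was -1.86 ± 0.06 under ML-792 and -0.85 ± 0.06 under DMSO, so the interaction was -1.01 ± 0.08 (adjusted p = 5.89e-05).

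KLF6, a zinc finger factor induced by stress and growth factors, rose under both treatments. The ML-792 libraries had 43.0, 45.2 and 46.2 FPKM with heat shock and 28.2, 26.3 and 26.8 FPKM without. The DMSO libraries had 69.3, 79.8 and 72.4 FPKM with heat shock and 24.7, 24.5 and 24.2 FPKM without. Heat shock raised it 1.65-fold under ML-792 and 3.02-fold under DMSO, and no group overlapped another (interaction -0.85 ± 0.08, adjusted p = 0.000144).

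ID2, an inhibitor of basic helix-loop-helix factors, rose with heat shock under DMSO and had no call under ML-792 on the deposited scale. It was at 66.3, 65.2 and 73.9 FPKM in ML-792 heat shock and 72.7, 75.8 and 71.7 FPKM in ML-792 without heat shock, ranges that overlap. In DMSO it was at 85.7, 92.6 and 90.9 FPKM with heat shock and 40.9, 48.4 and 43.6 FPKM without. ML-792 without heat shock had already raised ID2 by 0.72 ± 0.07 (adjusted p = 0.000129), and the heat shock change was -0.10 ± 0.07 under ML-792 (adjusted p = 0.221) and 1.00 ± 0.07 under DMSO. With equal totals ID2 fell by 0.42 under ML-792 (adjusted p = 0.00048) and rose by 0.74 under DMSO. The interaction was -1.11 ± 0.10 (adjusted p = 7.4e-05).

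In all, 9 of 32 immediate early genes had a negative interaction and 0 a positive one in limma (13 and 5 at an unadjusted p under 0.05), with a list median of -0.09. The negative share was 28.1%, beside 3.93% of all genes. MYC, KLF6 and ID2 held in every fit. ZFP36, which destabilises AU-rich mRNAs, had -0.58 ± 0.13 (adjusted p = 0.0278), IER3, an early response gene linked to cell survival, -0.42 ± 0.10 (adjusted p = 0.038) and CTGF, a matrix protein, -0.36 ± 0.09 (adjusted p = 0.0343). Their adjusted p without 1 library reached 0.081, 0.093 and 0.097. Classic members with large heat shock effects had no interaction call. FOS, an AP-1 subunit, was at 36.1, 60.9 and 56.1 FPKM in ML-792 heat shock, a range that covered the 39.7, 45.5 and 55.1 FPKM of DMSO heat shock, with an interaction of 0.04 ± 0.23. EGR1, a zinc finger factor, had 0.55 ± 0.24 (adjusted p = 0.149), and ATF3, a stress-induced factor that represses transcription, -0.49 ± 0.15 (adjusted p = 0.0602). Apart from MYC, KLF6, ID2 and ATF3, these members were chosen after their values were seen.

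Some factors of epithelial lineage had negative interactions like the growth genes, although their list did not lean that way as a whole. SOX9, which maintains intestinal progenitor cells, was at 6.998, 6.47 and 6.05 FPKM in ML-792 heat shock and 32.3, 32.5 and 32.1 FPKM in ML-792 without heat shock. It was at 9.52, 9.53 and 9.34 FPKM in DMSO heat shock and 26.3, 24.2 and 24.4 FPKM in DMSO without heat shock. SOX9 fell with heat shock to 0.201 of its level under ML-792 and to 0.379 of its level under DMSO, an interaction of -0.84 ± 0.08 (adjusted p = 0.00011).

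KLF5, a zinc finger factor of intestinal crypt cells, moved in opposite directions under each scaling tried. It was at 23.2, 23.3 and 25.6 FPKM in ML-792 heat shock and 31.2, 29.2 and 29.1 FPKM in ML-792 without heat shock, against 32.2, 37.1 and 34.0 FPKM in DMSO heat shock and 20.8, 20.8 and 19.5 FPKM in DMSO without heat shock. Its interaction was -1.03 ± 0.09 (adjusted p = 6.12e-05). ELF3, an epithelial ETS factor, had a mean of 18.2 ± 1.0 FPKM in ML-792 heat shock and 19.2 ± 0.9 FPKM in ML-792 without it, against 21.3 ± 1.5 FPKM in DMSO heat shock and 12.6 ± 0.5 FPKM in DMSO without it (SD, n = 3). Its heat shock change under ML-792 was -0.07 (adjusted p = 0.335), but -0.385 with equal totals (adjusted p = 9.61e-05). The interaction of ELF3 was -0.79 ± 0.09 (adjusted p = 0.000724). HES1, a repressor downstream of Notch that was chosen after its values were seen, had an interaction of -0.92 ± 0.13 (adjusted p = 0.0041). In the list of 20 SOX, KLF and lineage factors, these 4 had a negative interaction, all of them held in every fit, and 1 had a positive interaction, KLF13, also chosen after its value was seen (0.38 ± 0.08, adjusted p = 0.0253, and 0.209 without the GC and length trend). The list median was 0.05, equal to that of all genes, and 25% were called beside 6.41% of all genes. At an unadjusted p under 0.05 in limma, 7 of the 20 were positive and 5 negative, beside 2035 and 1781 of 12191 genes tested.

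Of 27 tested genes of the p53 list, 3 had a negative interaction and 0 a positive one in limma (6 and 4 at an unadjusted p under 0.05), a negative share of 11.1% beside 3.93% of all genes, and the list median was 0.09. PMAIP1, which encodes the pro-apoptotic protein NOXA, was at 59.4, 54.3 and 63.0 FPKM in ML-792 heat shock and 55.9, 56.7 and 53.1 FPKM in ML-792 without heat shock, which overlap. The DMSO libraries had 72.2, 88.1 and 78.5 FPKM with heat shock and 37.0, 38.1 and 37.1 FPKM without, so that heat shock raised PMAIP1 2.13-fold under DMSO. Its change under ML-792 was 0.09 ± 0.07 (adjusted p = 0.301), but -0.23 with equal totals (adjusted p = 0.0297) and 0.25 with the GC and length trend removed (adjusted p = 0.000312). Its interaction was -0.97 ± 0.10 (adjusted p = 0.000372), and -0.69 ± 0.06 without the GC and length trend.

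PLK2, a stress-responsive polo-like kinase, was at 34.6, 34.4 and 36.2 FPKM in ML-792 heat shock and 61.3, 60.2 and 58.7 FPKM in ML-792 without heat shock. It was at 43.9, 43.9 and 42.7 FPKM in DMSO heat shock, overlapping the 39.9, 43.2 and 39.2 FPKM of DMSO without heat shock. PLK2 fell by 0.76 ± 0.05 with heat shock under ML-792 (adjusted p = 1e-07), and the DMSO change of 0.09 ± 0.05 did not pass (adjusted p = 0.151). The interaction was -0.85 ± 0.07 (adjusted p = 5.89e-05). The death receptor gene FAS had -0.38 ± 0.09 (adjusted p = 0.0392), a call lost without 10 of the 12 libraries in turn and without the GC and length trend (adjusted p = 0.461).

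Other genes with a negative interaction that held in every fit were not named by the rule and were chosen after their values were seen. ABCB1, the multidrug efflux pump, rose 4.49-fold under ML-792 and 7.92-fold under DMSO (interaction -0.65 ± 0.08, adjusted p = 0.00181). NEAT1, the long RNA that builds paraspeckles, rose 1.68-fold and 2.87-fold (interaction -0.71 ± 0.11, adjusted p = 0.00581), and PIM1, a serine/threonine kinase, 1.66-fold and 2.71-fold (interaction -0.63 ± 0.10, adjusted p = 0.00802). For the imprinted RNA H19 the level without heat shock differed most. It was at 4.85 ± 0.35 FPKM in ML-792 heat shock and 3.596 ± 0.25 FPKM in ML-792 without it, against 3.95 ± 0.11 FPKM in DMSO heat shock and 0.98 ± 0.14 FPKM in DMSO without it (SD, n = 3, interaction -0.97 ± 0.10, adjusted p = 0.000238). The rise of H19 under ML-792 was 0.35 (adjusted p = 0.000985), but 0.08 with equal totals (adjusted p = 0.419). TSC22D1, a transcriptional regulator induced by TGF-beta, fell under both treatments, by 1.61 ± 0.05 under ML-792 and by 0.94 ± 0.05 under DMSO.

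Among 15 tested genes of the HSP70 and HSP110 family, 12 rose with heat shock under ML-792 (background 39.3%) and 12 under DMSO (background 28.9%), which became 8 and 9 with equal totals, and 1 had a positive and 1 a negative interaction (13.3% called beside 6.41% of all genes). HSPA6, a strictly inducible HSP70, was the positive one. It was at 109.5, 147.8 and 131.5 FPKM in ML-792 heat shock and 54.8, 62.2 and 76.5 FPKM in DMSO heat shock, ranges that do not overlap. Without heat shock it was at or below 0.0226 FPKM in ML-792 and was listed at 0 in 2 DMSO libraries and at 0.0255 FPKM in the other, so no heat shock fold is given. The mean after heat shock was 2.01-fold higher with ML-792, and the interaction was 0.99 ± 0.16 (adjusted p = 0.00967), or 0.82 ± 0.11 without the GC and length trend (adjusted p = 0.00156). HSPA6 held in every fit, and a near-identical pseudogene, HSPA7, makes the assignment of its fragments uncertain.

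HSPA1A and HSPA1B encode nearly the same inducible HSP70, and the split of fragments between them is uncertain. HSPA1B was at 5244, 7104 and 5693 FPKM in ML-792 heat shock and 189, 198 and 197 FPKM in ML-792 without heat shock, against 3724, 4149 and 4672 FPKM in DMSO heat shock and 173, 185 and 167 FPKM in DMSO without heat shock. It rose 30.9-fold and 23.9-fold, and the interaction of 0.37 ± 0.15 did not pass (adjusted p = 0.13). HSPA1A was at 86.8, 66.1 and 346 FPKM in ML-792 heat shock, where library 3 was far above the others, and at 105, 89.0 and 27.6 FPKM in DMSO heat shock (interaction 0.89 ± 0.94, adjusted p = 0.532).

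HSPH1, an HSP110 nucleotide exchange factor, reached overlapping levels after heat shock with both treatments, at 947, 983 and 1168 FPKM in ML-792 and 950, 1099 and 1018 FPKM in DMSO. Without heat shock it was at 177, 174 and 176 FPKM in ML-792 and 119, 126 and 123 FPKM in DMSO, a rise with ML-792 of 0.51 ± 0.08 (adjusted p = 0.00453). Its interaction of -0.50 ± 0.11 (adjusted p = 0.0299) was no longer called without the GC and length trend (adjusted p = 0.0772) or without DMSO heat shock library 2 or any library that had no heat shock (adjusted p up to 0.091).

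Other inducible chaperones had heat shock effects that did not differ at the threshold. DNAJB1, an HSP40 that activates HSP70, rose 19.7-fold under ML-792 and 21.0-fold under DMSO (interaction -0.09 ± 0.12, adjusted p = 0.619). BAG3, an HSP70 cochaperone of selective autophagy, rose 15.5-fold and 13.7-fold (0.18 ± 0.12, adjusted p = 0.306), and HSPB1, the small heat shock protein HSP27, 8.02-fold and 7.77-fold (0.04 ± 0.21, adjusted p = 0.919). The constitutive HSP70 gene HSPA8 rose 2.23-fold and 2.52-fold (-0.17 ± 0.09, adjusted p = 0.2), HSP90AA1 1.87-fold and 2.08-fold (-0.15 ± 0.09, adjusted p = 0.262), and the mitochondrial chaperonin HSPD1 1.62-fold and 1.91-fold (-0.24 ± 0.10, adjusted p = 0.13). HSPA8, HSP90AA1 and HSPD1 have processed pseudogenes that could share fragments. The median replicate SD of the heat shock groups limits these comparisons, and a missed threshold does not show equal induction.

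**Figure D3:**
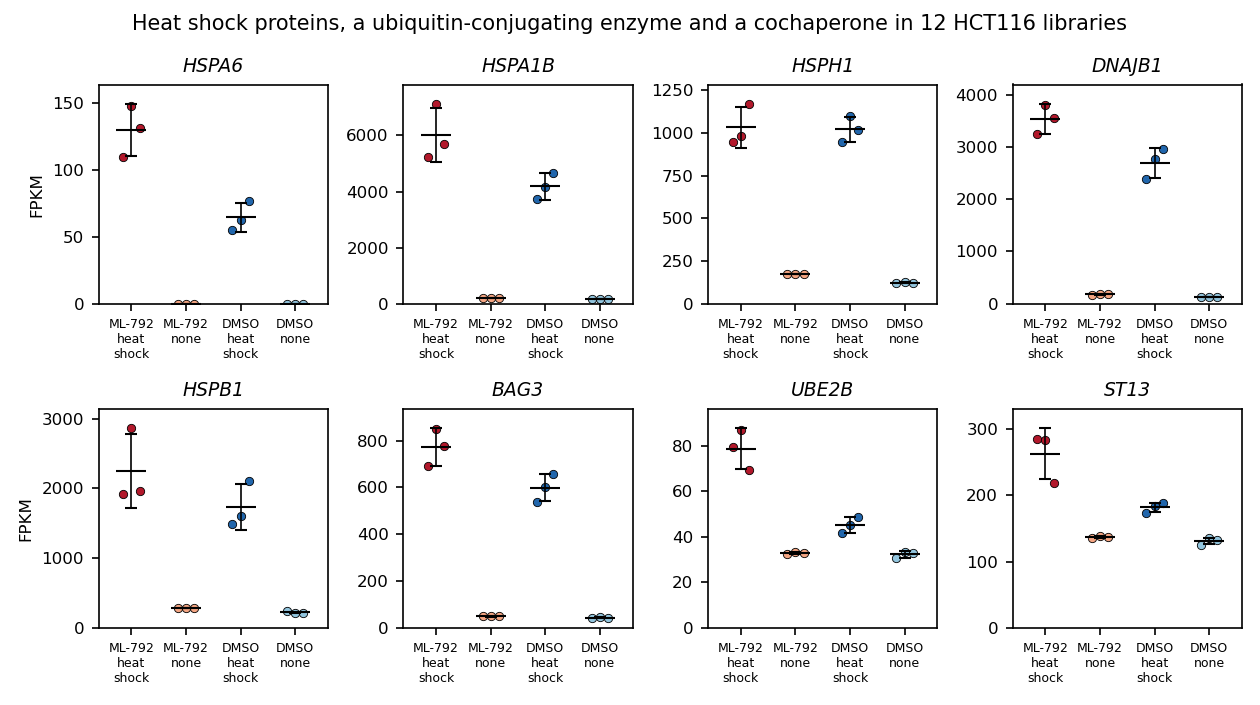
FPKM (y axis, linear, from 0) of 8 genes in the 12 libraries, by group: ML-792 with heat shock, ML-792 without, DMSO with heat shock and DMSO without. Points are libraries, and bars give the mean and SD of n = 3. HSPA6 and UBE2B after heat shock lie higher with ML-792 than with DMSO in all libraries, while HSPH1 and HSPB1 overlap.

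In the HSP40 (DNAJ) family, 2 of 38 genes had a negative interaction and 0 a positive one in limma (9 and 2 at an unadjusted p under 0.05), a negative share of 5.26% beside 3.93% of all genes. DNAJB9, a cochaperone of the endoplasmic reticulum, was at 5.65, 4.70 and 6.49 FPKM in ML-792 heat shock and 6.24, 5.92 and 5.73 FPKM in ML-792 without heat shock, against 7.74, 9.49 and 8.88 FPKM in DMSO heat shock and 4.32, 4.46 and 4.54 FPKM in DMSO without heat shock. It rose 1.96-fold under DMSO, and its change under ML-792 did not pass (adjusted p = 0.45, but a fall by 0.36 with equal totals, adjusted p = 0.00988). Its interaction was -0.91 ± 0.13 (adjusted p = 0.0041), and that of DNAJC10, a disulfide reductase of the same compartment, was -0.72 ± 0.12 (adjusted p = 0.0101). Both held in every fit. HSP90B1, the HSP90 of the endoplasmic reticulum, had -0.35 ± 0.08 (adjusted p = 0.0312), a call lost without the GC and length trend (adjusted p = 0.146).

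Among 20 genes of HSP90 and its cochaperones, 1 had a positive and 2 a negative interaction (15% called beside 6.41% of all genes). ST13, an HSP70 cochaperone also called HIP, was at 286, 284 and 219 FPKM in ML-792 heat shock and 135, 139 and 137 FPKM in ML-792 without heat shock, against 174, 184 and 188 FPKM in DMSO heat shock and 126, 135 and 133 FPKM in DMSO without heat shock (interaction 0.46 ± 0.12, adjusted p = 0.0483). PTGES3, the HSP90 cochaperone p23, rose 1.51-fold under DMSO and was at 307, 289 and 415 FPKM in ML-792 heat shock, around its 366 ± 14 FPKM in ML-792 without heat shock (SD, n = 3; with equal totals a fall by 0.46, adjusted p = 0.0062; interaction -0.72 ± 0.16, adjusted p = 0.0295). In both genes ML-792 heat shock library 3 lay nearest to DMSO heat shock, and the calls were lost without 10 and 7 of the 12 libraries in turn (adjusted p up to 0.11 and 0.09). HSPB11, listed with the small heat shock proteins although it is a component of the ciliary transport machinery, had -0.58 ± 0.13 (adjusted p = 0.0303, lost without 7 of 12 libraries, up to 0.088). Of 10 chaperonins and 4 heat shock factors, 0 were called in limma (4 and 2 at an unadjusted p under 0.05), with an interaction of 0.29 ± 0.10 for HSF1 (adjusted p = 0.0876) and -0.29 ± 0.13 for HSF2 (adjusted p = 0.146).

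**Figure D4:**
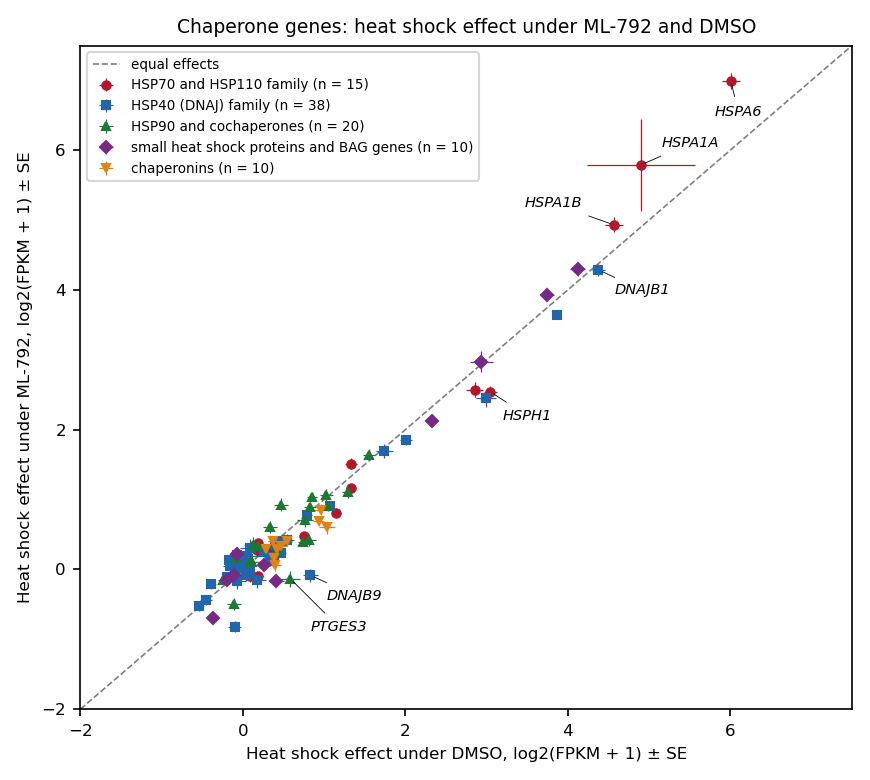
Heat shock effect under ML-792 (y axis) and under DMSO (x axis), as log2(FPKM + 1) differences with SE bars, for the tested genes of 5 chaperone families. The dashed line marks equal effects. Most genes lie near the line, HSPA6 lies above it, and HSPH1, DNAJB9 and PTGES3 lie below it.

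UBE2B, an E2 ubiquitin-conjugating enzyme and homologue of yeast Rad6, had the largest positive interaction of the genes named by the rule that held in every fit, after HSPA6. It was at 79.5, 87.0 and 69.1 FPKM in ML-792 heat shock and 32.4, 33.3 and 33.0 FPKM in ML-792 without heat shock, against 41.7, 45.1 and 48.7 FPKM in DMSO heat shock and 30.5, 33.4 and 32.9 FPKM in DMSO without heat shock. Heat shock raised it 2.39-fold under ML-792 and 1.40-fold under DMSO, and all ML-792 heat shock libraries were above all others. The interaction was 0.75 ± 0.11 (adjusted p = 0.00556), and 0.96 ± 0.12 without the GC and length trend. CDC42EP3, an effector of the small GTPase CDC42 that was chosen after its values were seen, was at 59.2, 61.0 and 59.6 FPKM in ML-792 heat shock and 43.4, 43.9 and 43.3 FPKM in DMSO heat shock, with 14.5 ± 0.3 FPKM in ML-792 and 14.2 ± 0.7 FPKM in DMSO without heat shock (SD, n = 3). Its interaction was 0.42 ± 0.07 (adjusted p = 0.00878), a call lost under scaling to equal totals. The remaining genes with a positive interaction that held in every fit were GCNT1 and PGAM4, at 0.44 and 0.90, and PGAM4 is nearly identical to PGAM1. PGAM4 was at 2.22, 2.23 and 2.46 FPKM in ML-792 heat shock and under 1 FPKM in every other library. It passed the expression filter only through the group where it was high, so its call is no independent support for a positive interaction.

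Positive interactions outside this group were less stable. ATN1, a transcriptional corepressor, was at 48.8, 53.1 and 48.4 FPKM in ML-792 heat shock and 35.9, 32.3 and 31.7 FPKM in DMSO heat shock, with 35.6 ± 2.8 FPKM in ML-792 and 36.7 ± 1.5 FPKM in DMSO without heat shock (SD, n = 3). Its interaction of 0.62 ± 0.10 (adjusted p = 0.00802) was called without any 1 library but not without the GC and length trend (adjusted p = 0.0528). NAB2, a corepressor of EGR1, rose 4.91-fold under ML-792 and 3.33-fold under DMSO (0.54 ± 0.13, adjusted p = 0.0326), and the snoRNA host gene SNHG9 had 0.93 ± 0.24 (adjusted p = 0.0435). SNAPC5, a subunit of the complex that starts small nuclear RNA transcription, had 0.73 ± 0.13 (adjusted p = 0.019), MID1IP1, a regulator of lipogenesis, 0.58 ± 0.11 (adjusted p = 0.0212), and ETV3, an ETS repressor, 0.52 ± 0.12 (adjusted p = 0.0319). ZNF282, PDDC1, the mitochondrial ribosomal protein gene MRPS11 and the metalloprotease gene ADAM19 had interactions of 0.52 to 0.55. These 9 genes each lost the call without at least 5 of the 12 libraries in turn, with adjusted p up to 0.11. Under scaling to equal totals, 34 positive and 192 negative calls were made, so that the balance of directions rests on the scaling.

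The heme oxygenase gene HMOX1, an NRF2 target, had a positive interaction, and ML-792 and DMSO differed at the threshold only without heat shock. It was at 53.1 ± 4.6 FPKM in ML-792 heat shock and 10.3 ± 0.5 FPKM in ML-792 without it, against 58.4 ± 4.8 FPKM in DMSO heat shock and 15.4 ± 0.2 FPKM in DMSO without it (SD, n = 3). The difference between the heat-shocked groups did not pass (adjusted p = 0.156). ML-792 lowered HMOX1 without heat shock by a change of -0.53 ± 0.07 (adjusted p = 0.00164), and the interaction was 0.40 ± 0.10 (adjusted p = 0.0412). Its call was lost without 9 of the 12 libraries in turn (adjusted p up to 0.11).

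Of 30 genes of the SUMO pathway, 1 had a positive interaction (PML) and 2 a negative one (SENP6 and USPL1), which is 10% called beside 6.41% of all genes. The median was 0.01, and none held in every fit. SUMO2 was at 675 ± 42 and 570 ± 15 FPKM in ML-792 with and without heat shock, against 563 ± 50 and 498 ± 8 FPKM in DMSO with and without heat shock (0.07 ± 0.10, adjusted p = 0.661). SUMO3 was at 27.6 ± 0.9 and 30.6 ± 1.9 FPKM in ML-792, against 24.5 ± 1.9 and 23.3 ± 1.3 FPKM in DMSO, in the same order (-0.21 ± 0.10, adjusted p = 0.151). SUMO2 has processed pseudogenes that could share fragments. The subunits of the SUMO-activating enzyme, SAE1 (0.02 ± 0.08) and UBA2 (-0.01 ± 0.07) were not called either, with adjusted p of 0.862 and 0.956.

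USPL1, a SUMO peptidase of Cajal bodies, was strongly heat induced. It was at 48.4, 51.8 and 65.6 FPKM in ML-792 heat shock and 12.9, 13.7 and 14.2 FPKM in ML-792 without heat shock, against 73.6, 80.8 and 75.0 FPKM in DMSO heat shock and 12.7, 13.8 and 13.5 FPKM in DMSO without heat shock. The rise was 4.06-fold under ML-792 and 5.73-fold under DMSO (interaction -0.50 ± 0.13, adjusted p = 0.0435). SENP6, a peptidase that trims SUMO2 and SUMO3 chains, was at 17.9, 16.9 and 24.2 FPKM in ML-792 heat shock and 24.3 ± 0.3 FPKM in ML-792 without it, against 28.0, 32.8 and 29.9 FPKM in DMSO heat shock and 23.8 ± 2.2 FPKM in DMSO without it (SD, n = 3, interaction -0.64 ± 0.16, adjusted p = 0.0366). PML, the scaffold of the nuclear bodies that SUMO helps assemble, was at 4.72 ± 0.29 and 4.95 ± 0.33 FPKM in ML-792 with and without heat shock, against 3.54 ± 0.27 and 5.07 ± 0.28 FPKM in DMSO with and without heat shock (0.36 ± 0.10, adjusted p = 0.0459). Each of these 3 calls was lost without 9 of the 12 libraries in turn (adjusted p up to 0.12) and without the GC and length trend (adjusted p of 0.109 for USPL1, 0.0945 for SENP6 and 0.389 for PML).

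**Figure D5:**
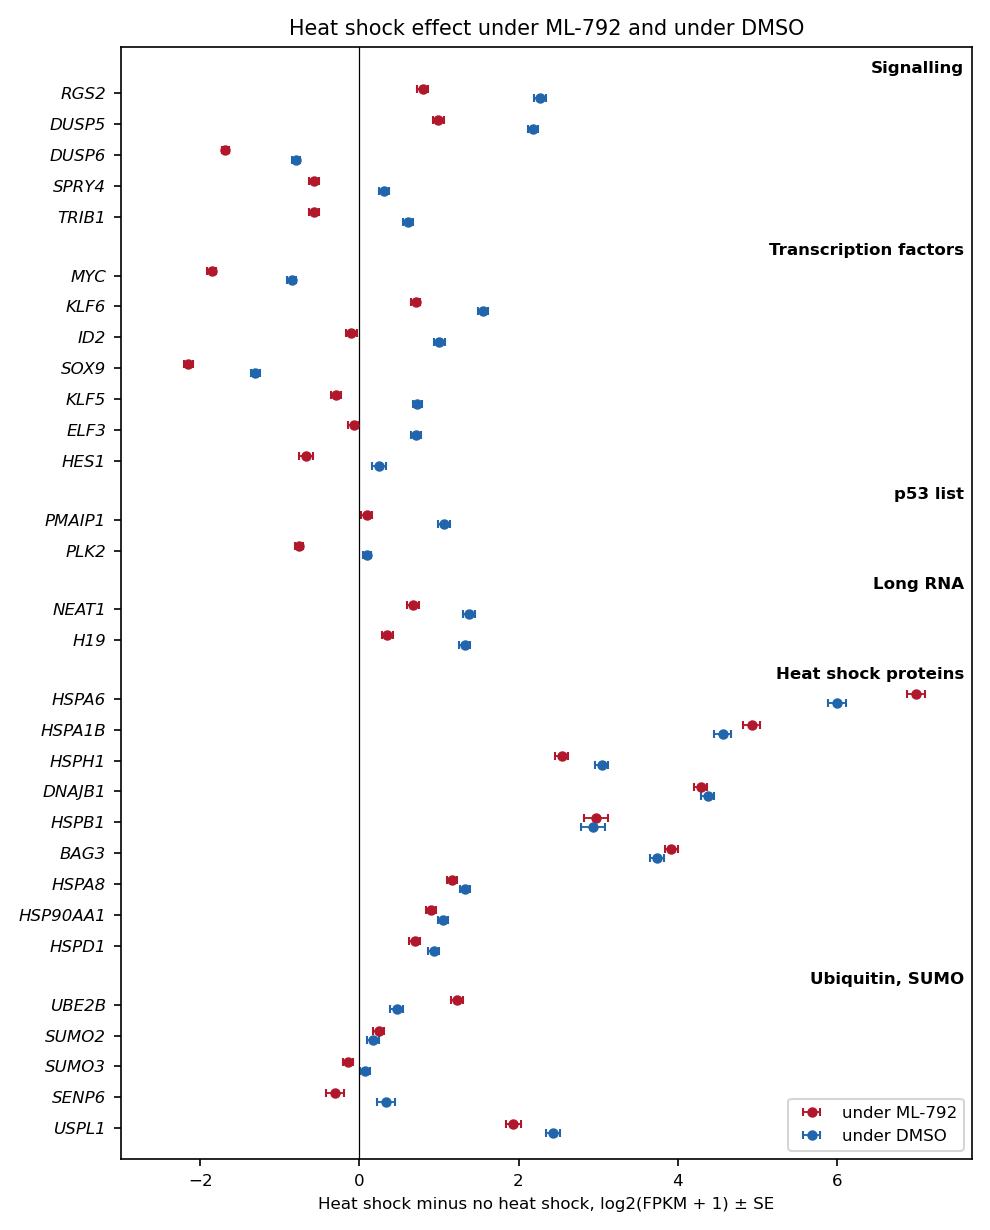
Heat shock minus no heat shock on the log2(FPKM + 1) scale (x axis, points with SE bars) under ML-792 and, below it, under DMSO, for genes grouped by role. The signalling genes and transcription factors drawn all have a negative interaction call. That choice fixes their ML-792 point to the left of the DMSO point. Uncalled members of the same lists, such as FOS, EGR1 and SPRY2, are not drawn. HSPA6 and UBE2B have the ML-792 point to the right, and most heat shock proteins have the points close together.

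Among the most negative interactions, further genes had 1 ML-792 heat shock library apart from the other 2. SLC38A2, a neutral amino acid transporter, was at 47.9, 43.5 and 79.3 FPKM in ML-792 heat shock and 131, 144 and 117 FPKM in DMSO heat shock, with 161 ± 1 FPKM in ML-792 and 169 ± 3 FPKM in DMSO without heat shock (SD, n = 3). Its interaction was -1.16 ± 0.23 (adjusted p = 0.0231, lost without 7 of 12 libraries, up to 0.076). YEATS4, a reader of histone acylation, was at 7.07, 6.58 and 9.85 FPKM in ML-792 heat shock and 15.5, 17.3 and 15.9 FPKM in DMSO heat shock (interaction -0.997 ± 0.15, adjusted p = 0.00556) and held in every fit. LYPLAL1, a serine hydrolase, had -1.15 ± 0.20 (adjusted p = 0.0128), and RNF139, an ubiquitin ligase of the endoplasmic reticulum, -1.16 ± 0.19 (adjusted p = 0.0108). Both were called without any 1 library.

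NDUFC2, a subunit of mitochondrial complex I, had the most negative interaction by the rule, -1.94 ± 0.41 (adjusted p = 0.0299). It was at 18.2, 24.2 and 40.1 FPKM in ML-792 heat shock and 67.1, 119 and 138 FPKM in DMSO heat shock, with 122 ± 5 FPKM in ML-792 and 123 ± 4 FPKM in DMSO without heat shock (SD, n = 3). The readthrough gene NDUFC2-KCTD14, chosen after its values were seen, moved the other way. It was at 18.5, 20.8 and 11.8 FPKM in ML-792 heat shock and 7.27, 2.32 and 3.21 FPKM in DMSO heat shock, and at or below 0.658 FPKM in every library without heat shock (interaction 1.99 ± 0.48, adjusted p = 0.0427). The genes overlap, so the split of fragments between them is uncertain, and both calls were lost without 8 and 10 of the 12 libraries in turn (adjusted p up to 0.088 and 0.1).

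Among 82 cytosolic ribosomal protein genes, 31 proteasome subunits, 14 genes of NF-kB and cytokines, 9 histone genes with a polyadenylated form, 12 snoRNA host genes (a list without SNHG9) and 13 mitochondrially encoded genes, 0 had an interaction call in limma, where 6.41% of all genes did. At an unadjusted p under 0.05 they had 2, 9, 5, 2, 4 and 0 genes, in the same order, against 3816 of the 12191 genes tested. Of 338 genes with symbols starting in ZNF, 12 had a positive and 19 a negative interaction, with a median of -0.01 (9.17% called in all). Of 18 cholesterol synthesis genes, 2 had a positive and 4 a negative interaction, which is 33.3% called beside 6.41% of all genes. MSMO1, a sterol oxidase, had -0.78 ± 0.15 (adjusted p = 0.0229), and HMGCS1, the HMG-CoA synthase, -0.49 ± 0.08 (adjusted p = 0.012), while DHCR7, the last enzyme of the pathway, had 0.36 ± 0.08 (adjusted p = 0.0279). The others were IDI1, CYP51A1 and SREBF2, chosen after their values were seen, and only HMGCS1 of these 6 was called without the GC and length trend (adjusted p = 0.0162).

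The 16 h libraries of the same line share no library with this experiment and give a separate reading of ML-792 without heat shock. These cells had 16 h in ML-792 or DMSO at the same doses as in the heat shock experiment. The 16 h fit also took in libraries of the cell lines COLO205 and MDAMB231. The genes tested and the spread per gene were therefore not set by HCT116 alone. In the HCT116 contrast at 16 h, 1186 of 14251 genes (8.32%) were higher and 915 (6.42%) lower with ML-792. Of 12020 genes tested at both times, 9.03% were higher and 7.18% lower with ML-792 at 16 h. Among 475 genes with a negative interaction, 131 were higher at 16 h (27.6% of the 475 and 12.1% of the 1086 higher genes) and 12 were lower (2.53%). Among 292 with a positive interaction, 2 were higher (0.685%) and 52 lower (17.8% of the 292 and 6.03% of the 863 lower genes). The 16 h effect also moved with GC content across genes (Spearman -0.49, against 0.71 for the interaction), and the part of GC content in these overlaps was not tested. Of the 47 genes with a negative interaction that held in every fit, 46 were tested at 16 h, where 15 were higher and 3 lower.

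Examples at 16 h were RGS2, higher with ML-792 by 1.34 ± 0.24 (adjusted p = 0.00175), ID2 by 0.82 ± 0.06 (adjusted p = 6.29e-08), DUSP6 by 0.48 ± 0.07 (adjusted p = 0.000127), PMAIP1 by 0.47 ± 0.08 (adjusted p = 0.000652) and SPRY4 by 0.28 ± 0.05 (adjusted p = 0.00157). MYC was lower by a change of -0.23 ± 0.07 (adjusted p = 0.0293), and DUSP5 (0.05 ± 0.12), KLF6 (0.18 ± 0.25) and KLF5 (0.13 ± 0.13) did not pass. At 3.5 h without heat shock, in libraries that enter the interaction, ML-792 had raised RGS2 by 0.64 ± 0.07, ID2 by 0.72 ± 0.07, PMAIP1 by 0.55 ± 0.07 and SPRY4 by 0.40 ± 0.06 (adjusted p of 0.000435, 0.000129, 0.00163 and 0.00317), whereas after heat shock the same genes were lower with ML-792, by changes of -0.84, -0.39, -0.43 and -0.48.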

How the data were processed

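RNA of HCT116 cells was prepared with a stranded TruSeq mRNA kit and sequenced as paired 50-base reads on a HiSeq, per the labels' protocols. The authors deposited FPKM values in 1 table of 30373 genes and 30 libraries, 12 of which were used here. The 18 libraries of 16 h (6 groups) were fitted separately for a side reading. Their groups were ML-792 and DMSO in each of HCT116, COLO205 and MDAMB231, and only the HCT116 contrast is reported. The submitters' processing notes name DESeq2 1.10.1 with no role, while for the aligner, genome build, annotation and strand setting the entry is: not given in the sources used here. FPKM are not counts, so the planned count test was not used.

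From the deposited FPKM, genes at 1 or more in at least 3 of the 12 libraries were tested by a moderated linear model in limma 3.58.1 (R 4.3.3), whose variance prior followed mean expression and was robust to outlying genes, on log2(FPKM + 1) with 1 mean per group and no covariate. Fold changes on this scale are understated for low genes, and folds of means are ratios of FPKM. The Benjamini-Hochberg adjustment ran over all genes tested, with a threshold of 0.05. The script was tested on simulated data with 200 changed genes. Depth in reads is unknown. No set test was run.

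GC content and length came from the longest GENCODE 29 transcript (94.4% of tested genes). The trend was removed per library with natural splines of 5 degrees of freedom on each. This removal, and the reading of single genes' heat shock effects under each scaling, were chosen after seeing the data. Named genes were the 12 largest positive and negative interactions among called genes above the median level, without clone and pseudogene names, the 3 smallest p of each of 30 lists, and fixed heat shock and SUMO genes. Of the 12 positive ones, 1 named only by a clone accession is not printed, and some named genes are not reported here. The members, lists and rule were chosen with earlier results of these data known. Figures were drawn with matplotlib.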

Additional observations from a re-analysis of the deposited data

Results flagged for a closer look

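Heat shock effects of opposite direction, each called at an adjusted p under 0.05 in limma under ML-792 and under DMSO together with a called interaction, were found for 11 of the named genes and list members. The interaction was -1.18 for TRIB1, -1.03 for KLF5, -0.88 for SPRY4 and -0.64 for SENP6, all of which were lower after heat shock under ML-792 and higher under DMSO. It was 0.73 for SNAPC5 and 0.55 for ZNF282, which were higher after heat shock under ML-792 and lower under DMSO. Among genes chosen after their values were seen, it was -1.16 for ARRDC3, -0.92 for HES1, -0.63 for ZFP36L1 and -0.54 for F3, lower under ML-792 and higher under DMSO, and 0.38 for KLF13, the other way round. The interactions, but not all of the opposite directions, of TRIB1, KLF5, SPRY4, ARRDC3, HES1, ZFP36L1 and F3 held in every fit. The calls of SENP6, SNAPC5 and ZNF282 were lost without 9, 5 and 6 of the 12 libraries in turn. Opposite calls remained under both other scalings for TRIB1 and KLF5. With the GC and length trend removed, they remained for TRIB1, KLF5, SPRY4, ARRDC3 and SNAPC5. In that fit the DMSO change was -0.04 for HES1 (adjusted p = 0.765), -0.05 for F3 (adjusted p = 0.391) and 0.11 for ZFP36L1 (adjusted p = 0.111). The ML-792 change was 0.05 for SENP6 (adjusted p = 0.601), 0.04 for ZNF282 (adjusted p = 0.586) and 0.01 for KLF13 (adjusted p = 0.814). With equal totals the DMSO change was 0.04 for SPRY4 (adjusted p = 0.704) and 0.07 for SENP6 (adjusted p = 0.648), and the ML-792 change was 0.16 for SNAPC5 (adjusted p = 0.178) and -0.04 for ZNF282 (adjusted p = 0.711), none of them called. The same holds for the DMSO change of ARRDC3 (0.0070, adjusted p = 0.95), HES1 (0.0049, adjusted p = 0.97), ZFP36L1 (-0.04, adjusted p = 0.598) and F3 (-0.11, adjusted p = 0.198) and the ML-792 change of KLF13 (-0.11, adjusted p = 0.275).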

How the results depend on the processing

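The interaction was called for 781 genes, and for 211 with no filter, 226 with equal totals, 1799 with weights per library, 292 with the GC and length trend removed, and 77 to 2526 without 1 library. Leaving out 1 library with the trend removed gave 125 to 1538. Positive calls made up 38.7% in the main fit, 18.9% of 1031 with median-of-ratios scaling, 34 of 226 with equal totals, 25.7% with the trend removed and 56.3% of 1870 without DMSO heat shock library 3. The median interaction of all genes was 0.05, and -0.0043 and 0.0042 under these scalings. ML-792 with heat shock (4083 calls) gave 1257 with weights per group, 2353 with weights per library, 2125 with the trend removed and 1631 to 5010 without 1 library. ML-792 without heat shock (147 calls) gave 962, 1076, 264 and 83 to 192 in the same order. Heat shock called 6585 to 7877 genes under ML-792 and 4972 to 6730 under DMSO without 1 library. Its positive share was 63.8% under ML-792 and 58.4% under DMSO, but 21.0% and 18.7% with equal totals. At 16 h, 2101 calls became 1186 to 2838 without 1 library. Across named genes with a call, 291 of 1008 leave-one-out tests and 89 of 918 other tests lost it, and 0 reversed. The causes were not tested. No paired analysis was possible because no replicate number in the labels links samples across groups.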

Other observations

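Readthrough (conjoined) genes, whose symbols join those of 2 neighbouring genes, were looked at after the pair NDUFC2 and NDUFC2-KCTD14 was seen. Of 48 tested, 4 had a positive interaction and 0 a negative one in limma (9 and 8 at an unadjusted p under 0.05), where 2.48% of all genes were positive. Of all 12191 genes tested, 2035 were positive and 1781 negative at that unadjusted p. They share exons with their parent genes, and the deposited files do not state how such fragments were split. KCTD14, the downstream gene of the pair, was at 1.32 ± 0.24 FPKM in ML-792 heat shock and 10.7 ± 0.6 FPKM in ML-792 without it, against 5.25 ± 1.82 FPKM in DMSO heat shock and 11.7 ± 0.4 FPKM in DMSO without it (SD, n = 3), with an interaction of -1.26 ± 0.23 (adjusted p = 0.0191 in limma, lost without 4 of 12 libraries in turn).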
